A study of Mus musculus with 8 samples.

Results

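RNA levels in the mouse macrophage line RAW264.7 were compared between an unstimulated culture (0 min) and a culture stimulated for 30 min with 100 ng/ml LPS from E. coli serotype O111:B4, the bacterial cell wall component that activates the receptor TLR4. Each of these time points is 1 library of 8 in the series, whose other libraries were taken at 15, 45, 60, 75, 90 and 120 min, and no time point was repeated. A difference between the 2 libraries therefore has no replicate check and no test, and every interval given here covers counting error only. The compared genes were those with at least 50 raw counts at 0 or 30 min, which left 11155 of the 23143 genes in the count table. Of these, 16 genes had a larger count of exactly 50, and 17 genes with a larger count of 49 stayed out. A gene is called higher or lower when its size-factor normalized count at 30 min was at least 2 times, or at most 0.5 times, that at 0 min. RAW264.7 is a virus-transformed line, a background that all cultures share. The labels call the RNA fraction cytoplasmic and the molecule total RNA.

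The 0 min library held 131039483 counts and the 30 min library 139624730, within the range of 100250892 to 159077286 over the series. The ribosomal precursor Rn45s took 8.59% and 8.18% of these counts, against up to 20.5% in the other libraries. At this depth a gene without a count could still have a level of up to 0.0229 cpm (counts per 1e6) at 0 min, and of up to 0.0215 cpm at 30 min. Among macrophage markers, 9 of 10 passed the count minimum, none was past 2-fold, and their median log2 ratio was -0.05. Lyz2 (lysozyme) had 575999 counts at 0 min and 521031 at 30 min, and Csf1r (the receptor for the growth factor CSF1) had 142496 and 148773. Fibroblast and epithelial markers were at or near 0, with summed normalized counts of 0.855 at 0 min and 0 at 30 min for either list. The B cell markers summed to 33.4 and 31.1, and of the T cell markers Lck alone passed the minimum (157 and 122 counts). RNAs that are retained in the nucleus were counted as well, with 289864 and 442855 counts for Malat1 (1.46-fold) and 6026 and 11716 for Kcnq1ot1 (1.86-fold). None of the 3 such RNAs was past 2-fold, and their median log2 ratio was 0.55.

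TLR4 signals through the adaptors MyD88 and TRIF to the IkB kinases and the MAP kinases. NF-kB then enters the nucleus, AP-1 and serum response factors are phosphorylated, and a set of genes is transcribed from factors that are already in the cell, without the need for new protein. These primary response genes encode cytokines and chemokines, further transcription factors and many inhibitors of the same pathway, and their mRNAs are often short-lived.

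The promoters of 6 genes from different roles are shown because these genes rose together and hold different motifs near their start. They were picked for their matches. Most of the 85 higher genes with a promoter entry held none of the searched motifs in the same window. Jun, Dusp2, Egr2 and Socs3 were among these. Each is the RefSeq promoter (GRCm38) from 250 bases before to 50 bases after the annotated start, read on the strand of the gene, with script-found motifs in capitals. The searched motifs were TATAAA, the AP-1 motif as TGANTCA, the cAMP response element as TGACGTCA, the kB motif and the CArG box of serum response factor. They were searched on either strand, and positions count from 0 at the start. TATAAA is the sequence of the TATA box, but it was counted anywhere in the window. Its shares are therefore not shares of promoters with a TATA box.
Cxcl2: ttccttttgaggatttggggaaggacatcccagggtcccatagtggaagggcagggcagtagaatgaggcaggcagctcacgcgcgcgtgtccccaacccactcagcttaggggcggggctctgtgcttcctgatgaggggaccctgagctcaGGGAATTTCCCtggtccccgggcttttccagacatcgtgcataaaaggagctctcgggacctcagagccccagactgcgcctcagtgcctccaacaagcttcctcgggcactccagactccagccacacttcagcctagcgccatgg
Nfkbia: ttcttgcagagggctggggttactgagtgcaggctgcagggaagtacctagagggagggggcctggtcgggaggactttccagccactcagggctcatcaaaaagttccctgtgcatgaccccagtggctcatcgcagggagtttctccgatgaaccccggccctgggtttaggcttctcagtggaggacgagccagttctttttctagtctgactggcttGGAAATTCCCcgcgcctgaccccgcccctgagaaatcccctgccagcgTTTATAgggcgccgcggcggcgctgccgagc
Tnfaip3: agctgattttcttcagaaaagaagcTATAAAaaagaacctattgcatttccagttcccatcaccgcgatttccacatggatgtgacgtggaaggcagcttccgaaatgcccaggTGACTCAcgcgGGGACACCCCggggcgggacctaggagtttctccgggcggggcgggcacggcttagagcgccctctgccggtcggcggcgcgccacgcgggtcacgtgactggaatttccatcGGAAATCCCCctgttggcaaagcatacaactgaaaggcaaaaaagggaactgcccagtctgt
Dusp1: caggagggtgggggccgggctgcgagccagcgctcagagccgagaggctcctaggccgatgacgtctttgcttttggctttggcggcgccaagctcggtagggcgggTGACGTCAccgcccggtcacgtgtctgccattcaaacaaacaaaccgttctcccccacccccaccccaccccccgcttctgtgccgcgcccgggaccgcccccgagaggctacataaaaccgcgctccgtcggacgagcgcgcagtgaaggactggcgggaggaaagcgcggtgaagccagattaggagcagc
Ppp1r15a: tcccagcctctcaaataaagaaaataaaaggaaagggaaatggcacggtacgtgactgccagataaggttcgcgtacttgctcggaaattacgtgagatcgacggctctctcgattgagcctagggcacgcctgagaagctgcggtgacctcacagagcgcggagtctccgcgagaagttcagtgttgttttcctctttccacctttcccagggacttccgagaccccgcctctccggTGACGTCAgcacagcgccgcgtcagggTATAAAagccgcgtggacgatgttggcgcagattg
Zfp36: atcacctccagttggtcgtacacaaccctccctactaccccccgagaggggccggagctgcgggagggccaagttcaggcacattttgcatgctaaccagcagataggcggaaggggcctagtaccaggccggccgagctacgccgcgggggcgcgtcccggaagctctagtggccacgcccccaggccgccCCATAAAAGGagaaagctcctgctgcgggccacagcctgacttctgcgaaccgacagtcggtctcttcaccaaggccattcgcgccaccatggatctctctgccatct

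The Cxcl2 promoter (chr5:90903649-90903948, plus strand) holds overlapping kB matches at -97 and -96. The Nfkbia promoter (chr12:55492598-55492897, minus strand) has a kB match at -29 and TATAAA on the other strand at 19. In the Tnfaip3 promoter (chr10:19015361-19015660, minus strand), kB matches lie at -125 and -12, an AP-1 match at -136 and TATAAA at -225. The Dusp1 promoter (chr17:26508423-26508722, minus strand) holds TGACGTCA at -143. The Ppp1r15a promoter (chr7:45526219-45526518, minus strand) has the same element at -12 and TATAAA at 15. The Zfp36 promoter (chr7:28379179-28379478, minus strand) has a CArG match at -58. Over the 8982 compared genes with a promoter entry, the kB motif was found in 4.98%, TATAAA in 6.96%, TGANTCA in 4.6%, TGACGTCA in 3.51% and the CArG box in 1.2%. Only 85 of the 115 higher genes had an entry, with shares of 14.1%, 16.5%, 4.71%, 7.06% and 3.53% in the same order. Entries were missing for part of either set, and the difference was not tested. The matches are a description of letters and carry no information about binding.

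After 30 min of LPS, 115 of the 11155 genes were at least 2-fold higher (1.03%) and 13 were at least 2-fold lower (0.117%). The leading genes encoded a chemokine (Cxcl2), nuclear and cytoplasmic inhibitors of NF-kB signalling (Nfkbiz, Tnfaip3), AP-1 subunits (Fosb, Jun), a phosphatase of MAP kinases (Dusp1) and the regulatory subunit of a phosphatase of eIF2alpha (Ppp1r15a). On the size-factor scale, most genes lay close to their 0 min level. The median log2 ratio was 0.01, and the central 95% of genes lay between -0.37 and 0.52. This scale places the median gene near no change, so a shift shared by most genes would not be seen. The higher genes held 0.281% of all counts at 0 min and 1.55% at 30 min. Of the higher genes, 39 were at least 5-fold and 22 at least 10-fold higher, and for 87 the lower bound of the counting interval also lay above 2. At a limit of 1.5-fold, 236 genes were higher (2.12%) and 93 lower (0.834%).

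**Figure D1:**
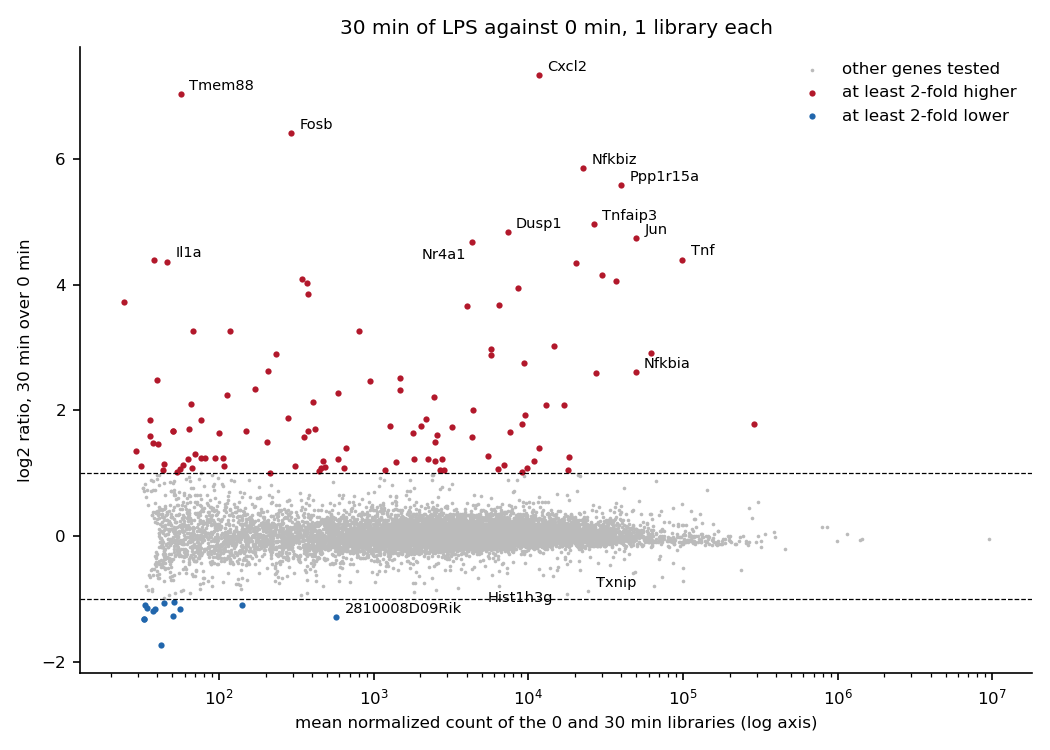
Log2 ratio of the 30 min library over the 0 min library (y axis) against the mean normalized count of these libraries (x axis, log scale) for 11155 genes, each point a gene. The 115 genes at least 2-fold higher (red) lie at low and high levels, while the 13 lower genes (blue) all have means under 1000, and dashed lines mark 2-fold.

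The share of genes called higher differed between levels, but the count minimum shaped these shares. It was 4.12% (28 of 679) for genes with a mean normalized count under 100, 1.52% (31 of 2041) from 100 to 1000, 0.59% (36 of 6100) from 1000 to 10000 and 0.857% (20 of 2335) above. Of the 13 lower genes, 11 had a mean under 100 and none had a mean of 1000 or more. Some genes with a mean under 100, such as Aoc3 (4 and 55 counts), passed the minimum only through the library where they were higher. Counting error is also largest at this level, so the shares under 100 are no measure of an effect of level. The higher genes comprised 102 protein-coding genes, 9 lncRNAs, 2 miRNA precursors, 1 snoRNA and 1 transcribed pseudogene.

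Tnf, Nr4a1, Dusp1 and Nfkbiz, which are widely used as markers of the primary response, were all higher, with a median log2 ratio of 4.76. Tnf (chr17:35199367-35202007) encodes the cytokine TNF. Its mRNA had 10429 counts at 0 min and 230723 at 30 min, a 21.2-fold difference (95% counting interval 20.8 to 21.6). Nr4a1 (chr15:101253902-101274795), an orphan nuclear receptor, had 377 and 10122 counts, a ratio of 25.7 (23.2 to 28.6). Dusp1 (chr17:26505591-26508472) encodes the phosphatase that inactivates p38 and JNK, and its 580 and 17349 counts gave a ratio of 28.6 (26.4 to 31.2). Nfkbiz (chr16:55811375-55838954) encodes the nuclear IkB protein IkB-zeta, with 896 and 54121 counts and a ratio of 57.8 (54.1 to 61.8). In the library between them, at 15 min, the normalized counts of these genes were already above 0 min, at 3.31-fold for Tnf, 1.61-fold for Nr4a1, 2.45-fold for Dusp1 and 3.7-fold for Nfkbiz.

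At later times the 4 genes parted. Rn45s took 16.6%, 20.5% and 15.8% of counts at 45, 75 and 90 min, against 8.59% and 8.18% at 0 and 30 min. Whether this difference between libraries moved the levels at those times was not tested. Normalized counts of Tnf were 8922, 29548, 188930, 270564, 84755, 108231, 196879 and 359742 from 0 to 120 min in order of time, so that 45 min was a local maximum and 120 min was higher still. Nr4a1 reached 17107 at 45 min and was back at 371 at 120 min, against 323 at 0 min. Dusp1 reached 37988 at 45 min and stayed between 13689 and 20152 from 60 min on. Nfkbiz was highest at 60 min with 122089 and held 85680 at 120 min.

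**Figure D2:**
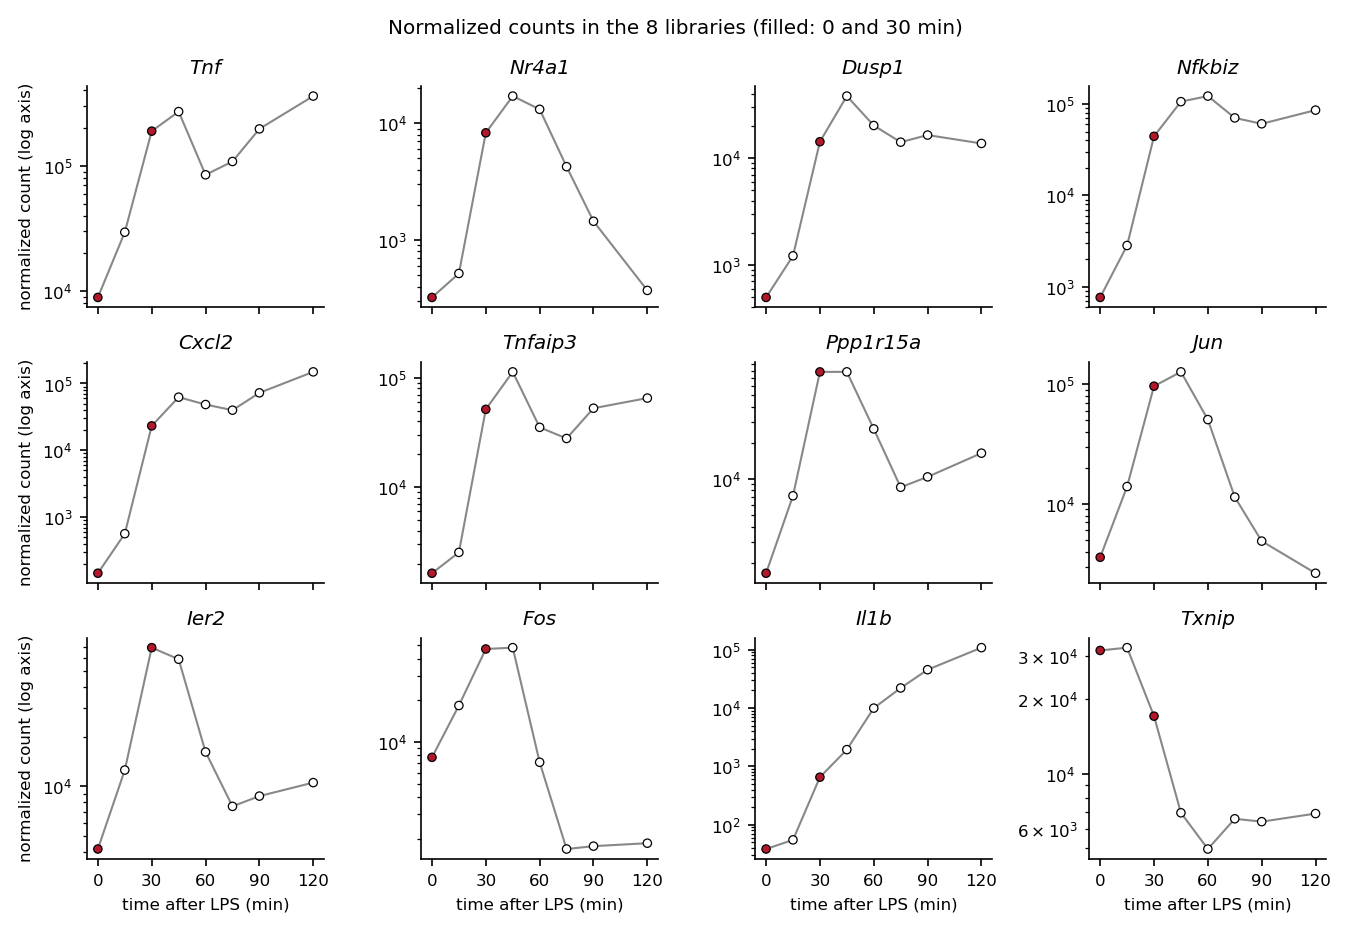
Normalized counts (y axis, log scale) of 12 genes in the 8 libraries by time after LPS in min (x axis), 1 library per point, with 0 and 30 min filled. At 120 min Jun and Fos are below their 0 min level and Nr4a1 is at 1.15-fold of it, Il1b is highest at 120 min, and Txnip is lower from 30 min on.

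Of 114 listed cytokines and chemokines, 28 passed the count minimum and 8 were higher (Cxcl2, Tnf, Il1a, Il1b, Cxcl10, Tnfsf9, Osm and Ccl4), against 1.03% of all genes tested. Of the 8, Il1a and Il1b passed the minimum only through the 30 min library. The share among the 28 is therefore partly set by that filter. The median log2 ratio of the 28 was 0.08. No count was found at 0 or 30 min for 51 of the listed genes. Cxcl2 (chr5:90903899-90905938), a chemokine for neutrophils, led the list and all genes by the lower bound of its ratio, with 169 counts at 0 min and 28343 at 30 min (161-fold, 138 to 188). It carries the overlapping kB matches shown above. The interleukins Il1b (chr2:129364569-129371164) and Il1a were at low counts in either library: Il1b had 45 and 799 (17-fold, 12.6 to 23.5) and Il1a 5 and 108 (20.7-fold, 8.59 to 65). Both were far higher later, at 2808-fold and 3157-fold over 0 min after 120 min. Cxcl10, an interferon-inducible chemokine, had 235 and 1190 counts (4.85-fold, 4.21 to 5.6).

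The other cytokines past the limit had smaller ratios. Tnfsf9, the ligand of 4-1BB, stood at 2.43-fold (3768 and 9558 counts), the IL-6 family cytokine Osm at 2.34-fold (413 and 1008) and the chemokine Ccl4 at 2.08-fold (2039 and 4433). Of the 8, 7 were highest at 120 min and none was highest at 30 or 45 min, whereas 56 of all 115 higher genes were highest at 30 or 45 min and 33 at 120 min. The cytokine mRNAs with the most counts that were not past the limit were Mif, with 58624 and 55507 counts (0.906-fold), and Ccl9, with 34740 and 36536 (1.01-fold).

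Among transcription factors, 7 of 11 AP-1 and related genes that passed the minimum were higher, against 1.03% of all genes, and their median log2 ratio was 2.47, against 0.01. AP-1 is a dimer of Fos, Jun and related proteins that binds DNA soon after mitogen or stress signals. Fosb (chr7:19302696-19310118) had 8 counts at 0 min and 709 at 30 min (84.8-fold, 42.8 to 197). Fosb, counted among the 7, passed the minimum only through the 30 min library. Jun (chr4:95049036-95052222) had 4190 and 117167 (26.8-fold, 26 to 27.6). Fos, with 9041 and 57308 counts, was 6.07-fold higher and Junb, with 17069 and 134308, was 7.53-fold higher. Atf3, a stress-induced repressor of cytokine genes, stood at 8.16-fold, Maff at 5.53-fold and Jund at 2.65-fold. Jdp2 (1.02-fold) and Mafk (1.25-fold) were the members with the most counts that did not pass the limit.

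The AP-1 genes had unlike time courses after 30 min. Fos was as high at 45 min as at 30 min (47988 and 46927 normalized counts) and was at 1854 at 120 min, below its 0 min level of 7734. Jun likewise stood at 2640 at 120 min against 3585 at 0 min. Junb was still 8.64-fold above 0 min at 120 min. Of the 7 genes, 3 had at most 0.5 times their 30 min level at 120 min.

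Of 27 tested serum response and other immediate early genes, 18 were higher, again against 1.03% of all genes, and the median log2 ratio was 1.41. Btg2 (chr1:134074865-134079155), an antiproliferative cofactor of mRNA deadenylation, had 2244 and 47401 counts (20.2-fold, 19.4 to 21.1). Ier2 (chr8:84661331-84662852) had 4855 and 84654 (16.7-fold, 16.2 to 17.2), and its normalized count of 69320 at 30 min was the highest of the 8 libraries. Ier3, reported to inhibit NF-kB and to act for or against apoptosis depending on the system, was 12.8-fold higher. The zinc finger factors Egr1, Egr2 and Egr3 were at 14.4-fold, 7.4-fold and 4.4-fold, and Arc, known from neurons as an activity-regulated gene, was at 12.7-fold. Klf2 (2.65-fold), Myc (2.28-fold), Id3 (2.1-fold) and Klf6 (2.02-fold) passed the limit by less. Gadd45a (35 and 119 counts), among the 18, passed the count minimum only through the 30 min library. Srf itself, which encodes serum response factor, was at 1.31-fold, and Klf10 was at 0.905-fold.

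None of the 5 genes for NF-kB subunits was past 2-fold (median log2 ratio 0.22), with Nfkb1 at 1.01-fold (22619 and 23862 counts) and Nfkb2 at 1.16-fold (7533 and 9157). Rel, which encodes the subunit c-Rel and was singled out as the member with the highest ratio, was at 1.74-fold (922 and 1677 counts, 1.61 to 1.89). In the list of IkB proteins and the A20 network, 4 of 15 genes were higher, against 1.03% of all genes, and the median log2 ratio was 0.17. The difference between these lists was not tested. Nfkbia, encoding IkBalpha, which holds NF-kB in the cytoplasm, had 16199 and 103619 counts (6.12-fold, 6.02 to 6.23). Tnfaip3 (chr10:19000910-19015410), encoding the ubiquitin-editing enzyme A20, had 1908 and 62618 (31.4-fold, 30 to 32.9). The nuclear IkB protein gene Nfkbid was at 6.79-fold. Nfkbiz is the remaining member past the limit. All 15 genes had ratios above 1, while 47.3% of all genes tested had ratios below 1. The partners of A20 with the most counts that stayed under the limit were Tnip3 (1.13-fold) and Tax1bp1 (1.09-fold).

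Of 10 MAP kinase phosphatases, 4 were higher, against 1.03% of all genes, and the median log2 ratio was 0.69. Beside Dusp1 these were Dusp2 (chr2:127336159-127338377) with 1224 and 19719 counts (15.4-fold, 14.6 to 16.4), Dusp5 at 9.59-fold (178 and 1783) and Dusp8 at 21.1-fold on 4 and 88 counts (7.94 to 79). Dusp8 passed the count minimum only through the 30 min library. Dusp4 was at 1.69-fold and Dusp6, which acts on ERK, at 0.881-fold. Dusp6 was further down later, at 0.118-fold of 0 min after 120 min.

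Of 16 listed mRNA decay factors, 3 were higher, against 1.03% of all genes, and the median log2 ratio was 0.36. Zfp36 (chr7:28376784-28379228) encodes tristetraprolin, which binds AU-rich elements of Tnf and other mRNAs, and had 3708 and 69170 counts (17.9-fold, 17.3 to 18.5). Zc3h12a, encoding the endonuclease Regnase-1, was at 3.37-fold (685 and 2414). Btg2 was the remaining gene past the limit. All 16 had ratios above 1, while 47.3% of all genes tested had ratios below 1. Elavl1, which encodes the stabilising protein HuR, and Khsrp were at 1.08-fold and 1.12-fold.

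A broader list of 53 feedback inhibitors of TLR4 signalling, taken from the supplement of the study, overlaps the lists above. Of its 49 tested members 12 were higher, against 1.03% of all genes, and the median log2 ratio was 0.17, against 0.01. Among the members not described so far, Socs3, an inhibitor of cytokine receptor signalling, had 1513 and 12479 counts (7.89-fold, 7.48 to 8.33), and the cell cycle inhibitor Cdkn1a was at 2.19-fold. Of the members under the limit, Cited2 had 35676 and 63557 counts (1.71-fold) and Ppp1ca 39171 and 37084 (0.906-fold).

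Of 30 genes for TLR4, its co-receptors, adaptors, kinases and ubiquitin ligases, 2 were at least 2-fold higher, against 1.03% of all genes, and the median log2 ratio was 0.05, against 0.01. These were Traf1 (2.97-fold, 2544 and 7893 counts), an adaptor of TNF receptors, and Map3k8 (2.26-fold, 1003 and 2373), which encodes the kinase TPL2 that acts upstream of ERK. Mapkapk2 (MK2, the kinase downstream of p38) was at 0.988-fold and the LPS co-receptor Cd14 at 1.22-fold.

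**Figure D3:**
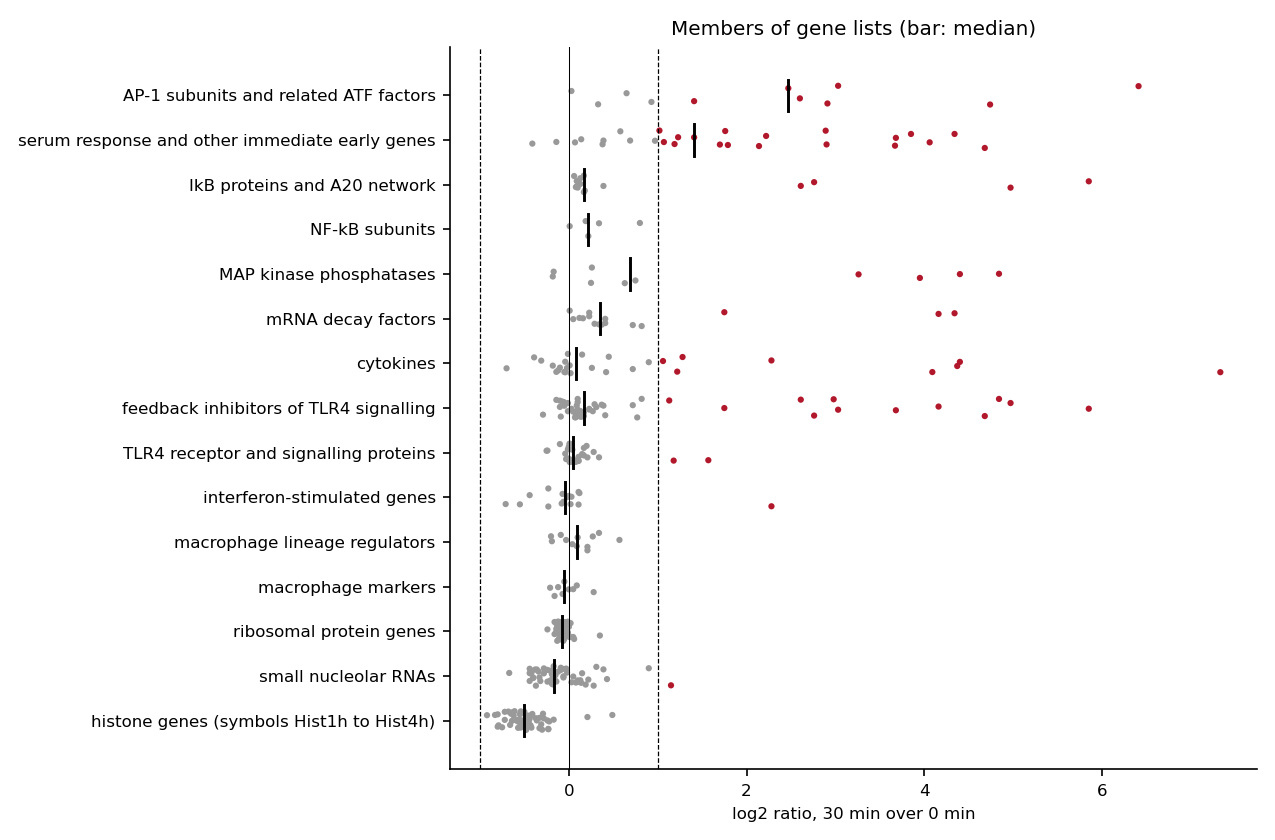
Log2 ratio of 30 min over 0 min (x axis) for the tested members of 15 gene lists (rows), each point a gene, red where at least 2-fold higher, with a bar at the list median and dashed lines at 2-fold. AP-1 and immediate early genes have medians of 2.47 and 1.41, the signalling proteins and macrophage markers lie near 0, and the histone genes have a median of -0.50.

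Of 16 tested interferon-stimulated genes only Cxcl10 was past the limit at 30 min, against 1.03% of all genes that were higher, and the median log2 ratio was -0.04. Irf9, a subunit of the factor that interferon activates, was at 1.01-fold. Of 13 listed secondary response genes 3 passed the count minimum, of which Irg1, encoding the enzyme that makes itaconate, was higher (1578 and 3862 counts, 2.34-fold). All 3 had ratios above 1, while 47.3% of all genes tested had ratios below 1, and the median log2 ratio of the 3 was 0.78. Irg1 was at 0.878-fold at 15 min and at 191-fold after 120 min. Saa3 was at 1.71-fold and Ptges at 1.19-fold. None of 12 macrophage lineage regulators was past the limit (median log2 ratio 0.10), with Mef2c at 1.15-fold and Sfpi1 (PU.1) at 1.03-fold. Of 10 genes of TGF-beta and BMP feedback Id3 alone was, against 1.03% of all genes higher (median log2 ratio 0.23). Skil was at 1.46-fold and Smurf2 at 1.09-fold.

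Further genes among the leading rises stood outside these lists. Ppp1r15a (chr7:45522917-45526268) encodes GADD34, which directs a phosphatase to eIF2alpha and so favours translation, and it had 1907 and 95293 counts (47.8-fold, 45.7 to 50.1). Its normalized counts were nearly equal at 30 and 45 min (78032 and 78094) and lower afterwards, with 8503 at 75 min and 16380 at 120 min. Tmem88 (chr11:69396516-69398234) rose from 1 count to 137, a ratio of 131 with an interval of 23.1 to 5217, and its span overlaps that of Lsmd1 (0.899-fold). It also lies next to Kdm6b (chr11:69398508-69420367), which had 512 and 3064 counts (5.73-fold). Whether RNA from Kdm6b adds to the Tmem88 counts was not tested. Among 13 genes in common use as references, the median log2 ratio was -0.06, with Eef1a1 at 0.958-fold and Actb at 1.11-fold.

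The following higher genes were picked for their roles after their values were seen. Nlrp3, the sensor of an inflammasome, had 4654 and 18518 counts (3.81-fold), and Ptgs2, the inducible cyclooxygenase, had 1094 and 4168 (3.65-fold). The surface protein gene Cd83 was at 4.26-fold, the chemokine receptor-like gene Ccrl2 at 16.3-fold (50 and 853 counts), the kinase gene Pim1 at 5.04-fold and the histone demethylase gene Kdm6b at 5.73-fold. Cflar, encoding the caspase-8 inhibitor c-FLIP, was at 2.3-fold and Pmaip1, encoding the pro-apoptotic protein NOXA, at 2.29-fold. The lectin receptor gene Clec4e (2.07-fold) and the heat shock cochaperone gene Dnajb1 (2.12-fold) lay close to the limit.

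**Figure D4:**
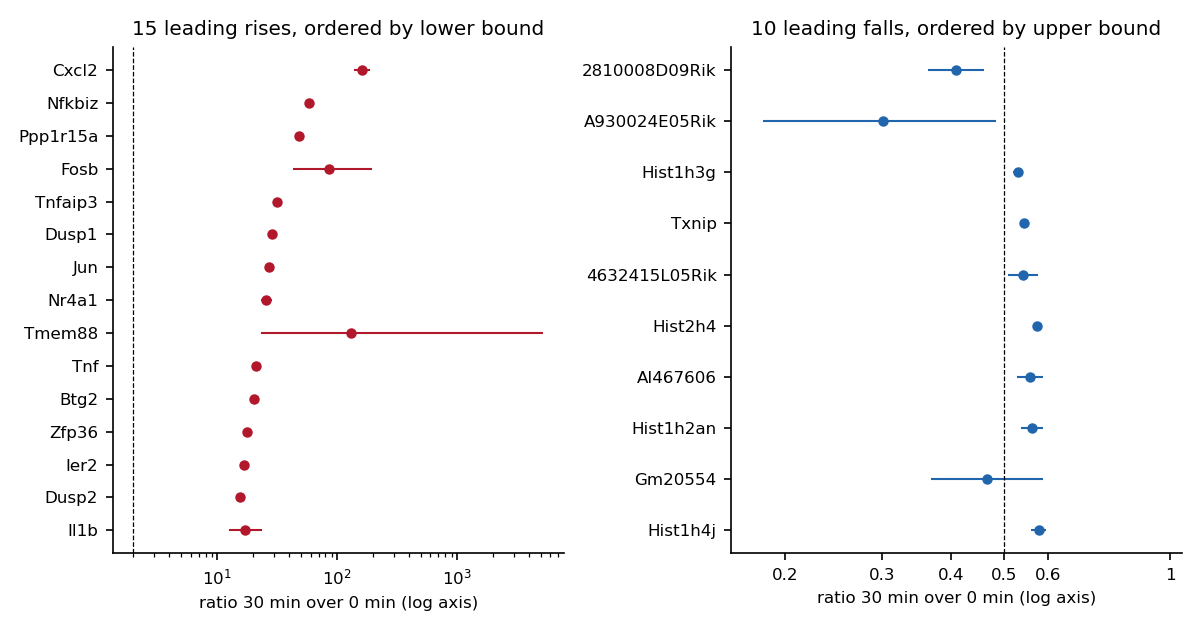
Ratio of normalized counts at 30 min over 0 min (x axis, log scale) for the 15 leading rises and 10 leading falls, ordered by the interval bound nearest to 1. Points are ratios, bars are exact 95% counting intervals, and the dashed lines mark 2 and 0.5. The bars of Tmem88 and Fosb are wide because these genes had 1 and 8 counts at 0 min.

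The genes lower at 30 min were few, and the count minimum shaped this set. Apart from 2810008D09Rik and Gm20554, they had under 50 counts at 30 min and passed the minimum only through the 0 min library. Most were noncoding, whereas 10649 of the 11155 compared genes were protein-coding. The share of noncoding genes among compared genes at such low counts was not determined. Being noncoding is therefore not read as a trait of the falls. Of the 13, 9 were lncRNAs, 3 protein-coding genes and 1 a transcribed pseudogene, their counts at 0 min ranged from 53 to 954 with a median of 70, and for 2 of them the upper bound also lay below 0.5. These were the lncRNA genes 2810008D09Rik (chr11:117076783-117078955), listed in RefSeq as the snoRNA host gene Snhg20, with 954 and 407 counts (0.408-fold, 0.363 to 0.459), and A930024E05Rik (chr5:122989354-122998345), with 76 and 24 (0.302-fold, 0.183 to 0.484). 2810008D09Rik was at 0.593-fold at 15 min and back at 1.23-fold at 120 min, while A930024E05Rik was at 0.237-fold at 120 min. The lncRNA gene Gm20554 (226 and 110 counts, 0.466-fold, 0.368 to 0.588) overlaps the span of Irx2, which was at 1.04-fold.

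Among the leading falls, the abundant mRNAs were less than 2-fold lower. Txnip (chr3:96557957-96561857), which encodes a thioredoxin-binding inhibitor of glucose uptake, had 36867 and 20883 counts (0.542-fold, 0.533 to 0.551). It was at 1.03-fold at 15 min, 0.22-fold at 45 min and 0.157-fold at 60 min, so the 30 min library lay between those levels. Txnip was on the list of zinc finger and other repressors, of whose 11 tested members none was past 2-fold (median log2 ratio 0.03). Nab1, a corepressor of the Egr factors, was at 1.1-fold. The pseudogene 4632415L05Rik (0.54-fold) and the gene AI467606 (0.557-fold) had 2756 and 3794 counts at 0 min. Among the 10 leading falls, they are the others of less than 2-fold outside the histone genes.

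Histone mRNAs made up the rest of the leading falls, as Hist1h3g (0.529-fold, 0.519 to 0.54), Hist2h4 (0.574-fold), Hist1h2an (0.561-fold) and Hist1h4j (0.577-fold). A list of all histone genes of the clusters Hist1 to Hist4 was therefore drawn up after these values were seen, so its counts only describe what had been noticed. Of its 57 tested genes none was past 2-fold and 16 were at least 1.5-fold lower, against 0.834% of all genes tested. A ratio below 1 was found for 55, against 47.3% of all genes tested. The log2 ratios of the 57 ran from -0.92 to 0.49 with a median of -0.50. Hist2h2bb, with the most counts, was at 0.689-fold (329837 and 237363) and Hist1h1d at 0.609-fold (146296 and 93054). Most of these mRNAs end in a stem-loop without a poly(A) tail and are counted here because ribosomal RNA depletion, not poly(A) selection, was used. Histone genes are nearly identical copies, and since reads on more than 1 gene were discarded, the values of single genes are uncertain. Hist1h3g was at its lowest at 45 min (9717 normalized counts) and at 15855 at 120 min, against 23274 at 0 min.

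The time of the highest library among the 115 higher genes was 30 min for 12, 45 min for 44, 60 min for 18, 90 min for 8 and 120 min for 33. At 15 min, 104 lay between their levels at 0 and 30 min, and 11 lay below 0 min, such as Ccl4 (0.69-fold) and Cd83 (0.895-fold). At 45 min, 99 were above their 30 min level. At 120 min, 30 had at most 0.5 times and 39 at least 2 times the 30 min level. These comparisons with 0 and 30 min share the libraries that define the set, and are given as descriptions.

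The higher genes were short and had few exons, features that the choice of genes did not use. The 102 protein-coding genes among them spanned a median of 7.14 kb in the RefSeq annotation of GRCm38, against 22.7 kb for all 10649 protein-coding genes compared. Their median number of exons was 4 (100 genes with an annotated transcript) against 9 (10584 genes). At most 3 exons were found in 43% of them (43 of 100), against 11.7% (1236 of 10584), and 9% against 2.01% had a single exon. Transcript lengths differed less, with medians of 2.54 and 3 kb. Among the genes at least 5-fold higher the median span was 4.27 kb (38 genes). The 46 genes with their highest library at 30 or 45 min had a median span of 3.9 kb and the 56 with a later highest library 9.52 kb. Jun, for example, is a single exon of about its whole span of 3187 bases. Spans were read from the annotation and no test was made of these differences.

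**Figure D5:**
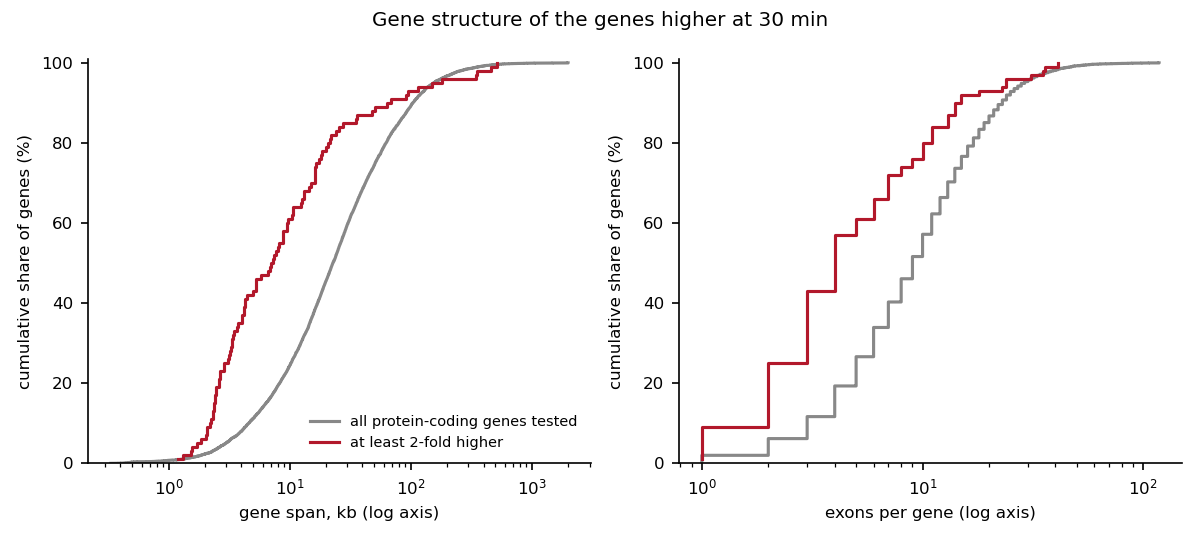
Cumulative share of protein-coding genes (y axis, %) by gene span in kb (left) and by number of exons (right), both on log axes, for the 100 genes at least 2-fold higher at 30 min that have an annotated transcript (red) and for all 10584 such genes compared (grey). The red curves lie to the left, with 43% against 11.7% of genes at 3 exons or fewer.

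For 20 of the 115 higher and 7 of the 13 lower genes the annotated span overlapped that of another gene with counts at 0 or 30 min, and the counts are not stated to use strand. The miRNA precursor gene Mir1938 (26 and 262 counts, 9.65-fold) overlaps the span of Ifrd1 (18129 and 31295 counts, 1.65-fold), and Mir1894 (2.79-fold) that of Ppp1r10 (1.64-fold). Snora41 (32 and 74 counts, 2.21-fold) overlaps Eef1b2 (0.957-fold). Reads of such small genes and of the RNA around them cannot be told apart by count alone.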

How the data were processed

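RNA-seq libraries of RAW264.7 cells at 0 and 30 min of LPS were analysed, 1 library each, scaled together with the other 6 time points. According to the methods of the study, ribosomal RNA was removed with Ribo-Zero, directional libraries were sequenced, Bowtie alignments to RefSeq transcripts with at most 2 mismatches were kept, and reads on more than 1 gene symbol were discarded. The submitters' processing notes name CASAVA 1.8.2 and DESeq 1.10.1, and the builds mm10 and GRCm38. The deposited values are raw counts of reads for each gene symbol, which the authors had not normalized. All 8 columns were used, and 0 rows lacked a gene name.

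Median-of-ratios size factors over the 8 libraries were 1.17 at 0 min and 1.22 at 30 min. Normalized counts, ratios and exact conditional binomial 95% intervals (Clopper-Pearson, counting error only; reads are not independent molecules) were computed with Python 3.11.15, numpy 2.4.6, pandas 2.3.3 and scipy 1.17.1, and figures were drawn with matplotlib 3.10.9. With 1 library a group no test across genes was possible. Genes needed at least 50 counts in either library, and 2-fold was the limit of a call. Scripts were tested on simulated data. DESeq2 1.42.0 and edgeR 4.0.16 in R 4.3.3 served only for alternatives: the TMM scale, and the negative binomial rule of the study (a blind dispersion over 8 libraries, an unadjusted p limit of 0.05 and a log2 limit of 0.5).

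The comparison, the genes and the gene lists were chosen with earlier results of these data known. Named were the 4 markers, the 15 leading rises and 10 leading falls ranked by the interval bound nearest to 1, and list members past 2-fold with the 2 other members with the most counts. Some list members are not reported here. Other genes named, and the lists of histones, ribosomal proteins, snoRNAs, their host genes and Zfp genes, were chosen after their values were seen. The lists of cytokines and feedback inhibitors come from the supplement of the study, and Spi1 was matched as Sfpi1. Gene spans and promoters come from RefSeq (GRCm38), with a gene entry for 11139 of the 11155 genes and a promoter entry for 8982. Exon numbers and transcript lengths come from GENCODE transcripts matched by RefSeq accession, taking the largest value for each gene. Other scales, count minimums, limits and a pseudocount were tried as alternatives.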

Additional observations from a re-analysis of the deposited data

How the results depend on the processing

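No paired analysis was possible because each time point has 1 library, and for the same reason no replicate could be left out. The count of genes at least 2-fold higher was 115, and lay between 84 and 114 with other scales, a minimum of 200 counts, a pseudocount of 10 normalized counts, the interval bound past 2 and protein-coding genes only. It was 251 with a minimum of 10 counts, 959 with no minimum, 236 at a limit of 1.5-fold and 68 at 3-fold. The rule of the study called 144 genes higher, of which 108 were among the 115. The count of lower genes, 13 as reported, was 13 or 14 with other scales. It was 99 with a minimum of 10 counts, 897 with no minimum, 2 with a minimum of 200, 4 with the pseudocount, 93 at 1.5-fold, 1 at 3-fold, 2 with the interval bound past 0.5, 3 with protein-coding genes only and 23 by the rule of the study, of which 3 were among the 13. Of 125 ratios of the 25 leading genes under other scales and the pseudocount, 115 lay within the counting interval of the reported ratio, 10 outside it and none reversed. Scaling by total counts shifted all log2 ratios by -0.03. Differences between cultures other than counting error were not measured at either time.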

Other observations

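The lists of ribosomal protein genes, small nucleolar RNAs, their host genes and Zfp genes were drawn up after the values were seen. None of 80 ribosomal protein genes was past 2-fold, and 72 had a ratio below 1, against 47.3% of all genes tested. The median log2 ratio was -0.08, with Rpl4, which had the most counts, at 0.951-fold. Of 55 small nucleolar RNAs, which guide the modification of ribosomal RNA, only Snora41 was past the limit, against 1.03% of all genes higher. Snora41 passed the count minimum only through the 30 min library (32 and 74 counts). The median log2 ratio of the 55 was -0.17. Snord15b had 28354 counts at 0 min and 22410 at 30 min (0.757-fold). The 9 tested snoRNA host genes that carry a Snhg symbol in the count table had a median of -0.17, none of these was past 2-fold, and Snhg5 was at 0.632-fold (3407 and 2249 counts). Host genes under older symbols are not in that list, such as 2810008D09Rik (Snhg20), which was past the limit at 0.408-fold. Of 294 genes with Zfp symbols, only Zfp36 was past the limit, against 1.03% of all genes higher, and the median log2 ratio was 0.05.

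Some genes past the 2-fold limit had low counts. The nuclear receptor gene Rorb had 15 and 150 counts (9.57-fold, 5.62 to 17.5) and was at 7.86-fold at 15 min. The olfactory receptor genes Olfr1033 (29 and 131 counts, 4.32-fold) and Olfr920 (18 and 68, 3.62-fold) were higher too, and Olfr1033 was at 31.6-fold after 120 min. The miRNA precursor gene Mir1938 had its highest library at 30 min, with 215 normalized counts against 22.2 at 0 min and 23.2 at 60 min. At higher counts, the miRNA host genes Mir17hg (1941 and 4751 counts, 2.34-fold) and Mir22hg (339 and 729, 2.06-fold) were higher.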
